A study of Homo sapiens with 4 samples.

Results

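The genes described here are the EGF receptor family and its ligands: the receptors EGFR, ERBB2 and ERBB3, the ligands AREG, EREG, HBEGF, TGFA, EPGN and BTC, and the feedback inhibitor ERRFI1. Members were taken as every probe set that the platform annotation ties to 1 of these 10 symbols alone, which gave 29 probe sets of 8 genes, out of 54675 probe sets and 19775 named genes in all. No probe set was tied to AREG or EPGN in this way, and both were not analysed here. RNA came from HCT116, an established human colorectal cancer line, transfected with TET1 siRNA (2 arrays) or control siRNA (2 arrays), with a lipid reagent in both groups. TET1 is an enzyme that converts the methyl mark on cytosine to oxidised forms, and the comparison asks which transcripts shift in these cells when it is depleted. The design text calls the arrays of a group biological duplicates. The labels name 1 TET1 siRNA condition in 1 cell line, so loss of TET1 and other effects of that siRNA cannot be told apart. The values are of whole cultures, so a change in the share of cells that make a transcript and a change in RNA per cell cannot be told apart.

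The receptors of this family are cell surface tyrosine kinases that pair when a ligand binds and then signal through RAS and the MAP kinases, through PI3K and through STAT proteins. Their ligands are made as membrane-anchored precursors and released by metalloproteases, so that a cell can act on itself and on its neighbours. In the intestine this signalling supports growth of the epithelium, and EGFR is a target of antibody treatment in colorectal cancer.

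Signals are linear, in arbitrary units, 1 for every probe set of an array, on a scale that carries the same trimmed mean on every array (100.01). Medians were 13.9 and 14.4 with TET1 siRNA and 14.3 and 15.5 with control siRNA. The TET1 transcript itself had signals of 14.6 and 15 with TET1 siRNA, against 58.1 and 59.6 with control siRNA, by its brighter probe set (log2 difference -1.28, SE 0.20, limma adjusted p = 9.69e-04, and -0.64 with a pseudocount of 64). Of the 8 epithelial markers KRT8, KRT18, KRT19, EPCAM and CDH1 were bright in both groups, with mean signals for KRT18 of 7423 with TET1 siRNA and 6668 with control siRNA and for EPCAM of 3114 with TET1 siRNA and 2806 with control siRNA. The other 3, which mark intestinal epithelium, were near the array median or below it: KRT20 (22.2 with TET1 siRNA and 18.2 with control siRNA), VIL1 (16.2 with TET1 siRNA and 14.4 with control siRNA) and CDX2 (11.4 with TET1 siRNA and 10 with control siRNA). Of the 7 epithelial markers tested, KRT8 rose (log2 difference 0.32) and CDH1 fell (-1.16). Summed signals of the fibroblast markers were 382.5 and 481.2 with TET1 siRNA against 304.8 and 338.5 with control siRNA, and most of that was COL1A1, which rose (log2 difference 0.47). Endothelial, lymphocyte and myeloid markers reached at most 25.1, 21.5 and 18 on any array. Their part in the results below was not tested.

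Of the 8 members measured, the ligand gene HBEGF rose and the ligand gene EREG fell with TET1 siRNA. No receptor and no other ligand passed limma's test, nor did ERRFI1, and at unadjusted p below 0.05 there was also 1 rise and 1 fall among the members. The 2 calls are 25% of the members, against 21.9% of all 12389 genes tested, so the share is near the background. By direction, 1 of 8 rose, against 11.2% of all genes, and 1 of 8 fell, against 10.6%. A gene was represented by its brightest probe set and called at a Benjamini-Hochberg adjusted p below 0.05 over all genes tested, with limma on log2(signal + 16), a scale on which the change of a dim gene comes out smaller. The groups did not overlap in 6 of the 8 members (75%), against 59.0% of all genes tested. A member that did not pass is not shown to be alike in both groups, and its interval is given below.

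**Figure D1:**
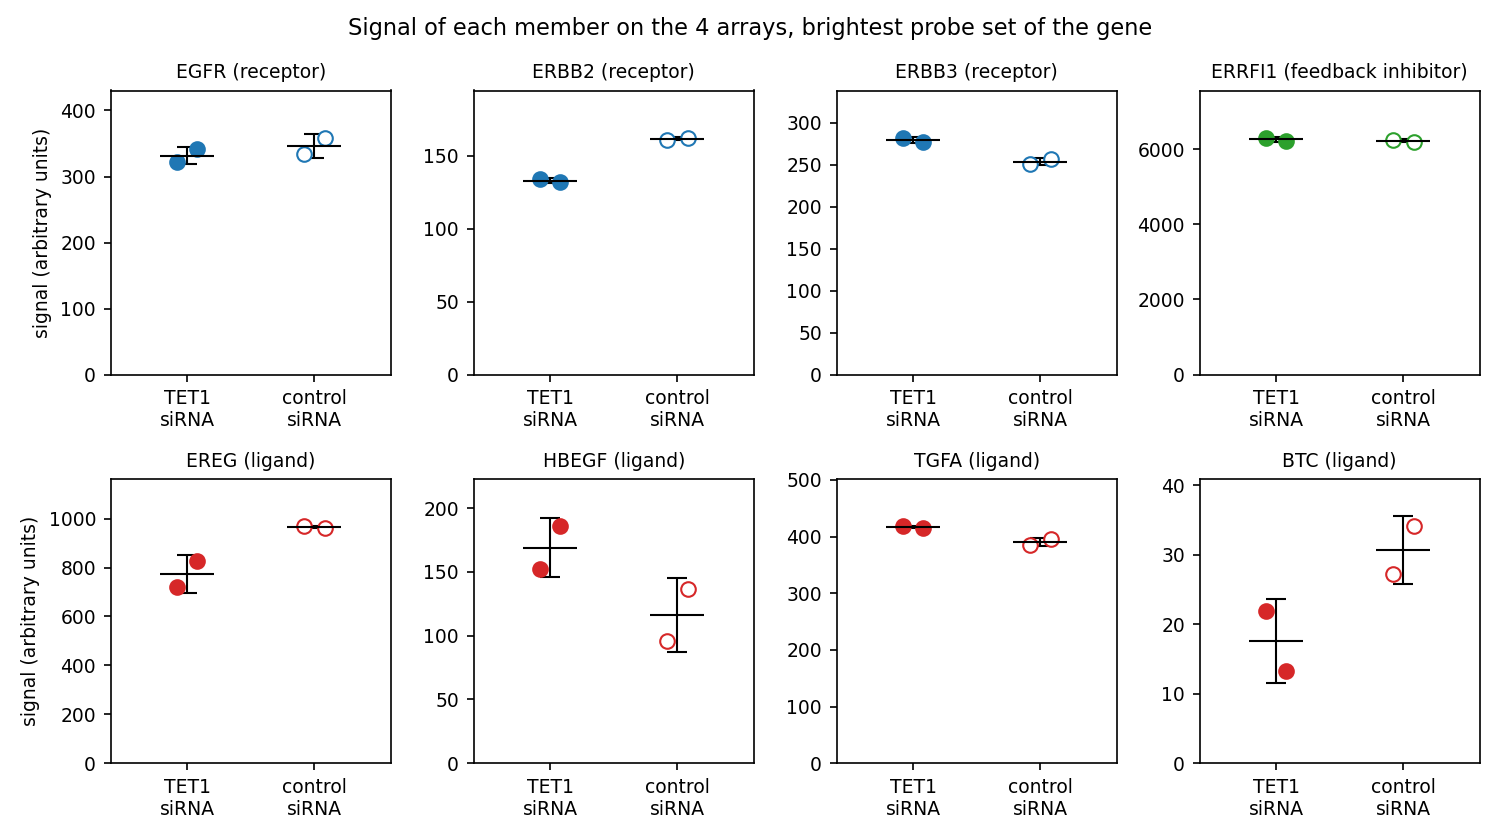
Signal of the 8 measured members on each array (vertical axes in arbitrary units, starting at 0, with a scale of its own per gene), TET1 siRNA left with filled points and control siRNA right with open points. Long bars are means and whiskers are 1 SD (n = 2); the groups stand apart without overlap for ERBB2, ERBB3, EREG, HBEGF, TGFA and BTC, and overlap for EGFR and ERRFI1.

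EREG encodes epiregulin, a ligand of EGFR and ERBB4. Its brightest probe set, 205767_at, gave signals of 720 and 828.5 with TET1 siRNA, against 968.7 and 962.8 with control siRNA. Both TET1 siRNA arrays were below both control siRNA arrays, and the spread between the TET1 siRNA arrays was the wider. Means were 774.2 ± 76.7 with TET1 siRNA and 965.8 ± 4.17 with control siRNA (SD, n = 2 each), a ratio of 0.802. The log2 difference was -0.32 (SE 0.084, 95% interval -0.50 to -0.13, limma adjusted p = 0.0197). The other EREG probe set, 1569583_at, was near the array median, with 20 and 6.2 with TET1 siRNA against 15 and 18.1 with control siRNA, and did not pass (limma adjusted p = 0.691). The call was lost without control siRNA replicate 1 (log2 difference -0.31, limma adjusted p = 0.0707), without control siRNA replicate 2 (-0.32, 0.0697) and without TET1 siRNA replicate 1 (-0.22, 0.174). EREG stayed lower in all 16 alternatives and passed in 8 of them. With the mean of both probe sets the log2 difference was -0.26 (limma adjusted p = 0.160).

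HBEGF encodes heparin-binding EGF-like growth factor, also a ligand of EGFR and ERBB4. Probe set 203821_at gave signals of 152.5 and 185.7 with TET1 siRNA, against 95.7 and 136.5 with control siRNA. Both TET1 siRNA arrays were higher, although the arrays of each group differed from one another. Means were 169.1 ± 23.5 with TET1 siRNA and 116.1 ± 28.9 with control siRNA (SD, n = 2 each), a ratio of 1.46. The log2 difference was 0.50 (SE 0.16, 95% interval 0.14 to 0.86), and the limma adjusted p of 0.0492 lay just under the threshold. With each of 27306 probe sets tested by itself, the same values had an adjusted p of 0.0645 and did not pass. A second probe set, 38037_at, gave 80 and 80 with TET1 siRNA against 66.2 and 63.2 with control siRNA, also without overlap, but its log2 difference of 0.25 (95% interval -0.082 to 0.58) did not pass (limma adjusted p = 0.308). Probe sets 244857_at and 222076_at had mean signals of 9.07 and 1.88, below the filter, and were not tested. The HBEGF call was lost on leaving out control siRNA replicate 1 (log2 difference 0.27, limma adjusted p = 0.279), TET1 siRNA replicate 1 (0.63, 0.0596) or TET1 siRNA replicate 2 (0.37, 0.272). It stayed higher in all 16 alternatives and passed in 6 of them. With the mean of all HBEGF probe sets the log2 difference was 0.11 (limma adjusted p = 0.702).

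The promoters of these ligand genes are shown because EREG and HBEGF are the members that passed, in opposite directions, and because TET1 acts on cytosines next to guanines. Each line is the 250 bases before the annotated start site, 5' to 3' on the gene's strand, from RefSeq on build GRCh38.p14, with each CG in capitals. The EREG window is chr4:74364895-74365144 on the plus strand, and the HBEGF window is chr5:140346604-140346853 on the minus strand.
EREG: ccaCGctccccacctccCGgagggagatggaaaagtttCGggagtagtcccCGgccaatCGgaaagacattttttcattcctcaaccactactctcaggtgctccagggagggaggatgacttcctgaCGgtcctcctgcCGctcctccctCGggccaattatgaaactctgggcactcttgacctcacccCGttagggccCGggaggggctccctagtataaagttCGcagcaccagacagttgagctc
HBEGF: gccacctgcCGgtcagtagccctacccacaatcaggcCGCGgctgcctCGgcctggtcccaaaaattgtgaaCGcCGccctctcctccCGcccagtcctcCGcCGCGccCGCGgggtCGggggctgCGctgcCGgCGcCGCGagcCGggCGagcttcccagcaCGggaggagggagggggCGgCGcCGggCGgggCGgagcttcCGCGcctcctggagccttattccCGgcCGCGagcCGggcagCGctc
The EREG window holds 11 CG and the HBEGF window 33. Over 35114 promoter windows of this length the median was 11 CG, with quartiles of 3 and 23, and 91.9% had fewer than HBEGF. Members that did not pass had CG-rich windows too. ERRFI1 had 39 CG (97.3% of windows had fewer), ERBB2 23, TGFA 20 and 27 in separate windows, and EGFR 25 and 1. A link between CG number and the calls was not tested. DNA methylation was not measured in this series. Motifs were searched on both strands as TATAAA (the TATA box), as CCAAT (the CAAT box), as GGAATG (bound by TEAD factors) and as TGANTCA (bound by AP-1). The EREG window holds TATAAA at base -32 from the start site, CCAAT at -196 and -95 and GGAATG on the opposite strand at -175, none of them overlapping, and no AP-1 letters. Of all windows, 10.7% hold TATAAA, 32% hold CCAAT and 11.9% hold GGAATG. The HBEGF window holds none of these letters, nor TGANTCA, which 6.57% of all windows hold. A match is a string of letters and no measured binding site.

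EREG lies beside other genes of the family. In the RefSeq gene table EPGN, EREG and AREG follow each other on chromosome 4 with no other annotated gene between them, and BTC comes next among protein-coding genes. Promoter windows were matched for 9 of the 10 members. The window of AREG holds 23 CG and TATAAA at -29, that of EPGN 3 CG and TATAAA at -29, and that of BTC 8 CG and none of the motifs searched.

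Of the ligands that did not pass, BTC, which encodes betacellulin, a ligand of EGFR and ERBB4, was dim. Its signals were 21.9 and 13.3 with TET1 siRNA, against 27.2 and 34.1 with control siRNA, by probe set 241412_at. The groups did not overlap, yet the log2 difference of -0.48 had a 95% interval of -1.0 to 0.038 (limma adjusted p = 0.179). It was -0.30 without TET1 siRNA replicate 2, -0.80 with a pseudocount of 1 and -0.22 with a pseudocount of 64, and passed in none of these. The other BTC probe set, 207326_at, pointed the same way, with 15.4 and 13.6 with TET1 siRNA against 22 and 17.7 with control siRNA (log2 difference -0.23, limma adjusted p = 0.552). These signals are near the array median. TGFA encodes transforming growth factor alpha, an EGFR ligand. It gave 418.1 and 415.7 with TET1 siRNA, against 385.3 and 396 with control siRNA, by probe set 205016_at. The difference was small but without overlap, 0.090 on the log2 scale (95% interval -0.10 to 0.28, limma adjusted p = 0.525). The dimmer TGFA probe sets had log2 differences of -0.12 (211258_s_at) and 0.17 (205015_s_at), and neither passed. With all 3 averaged TGFA was at 0.047.

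No receptor passed the test. EGFR is the receptor that binds the ligands encoded by EREG, HBEGF, TGFA and BTC. Its signals were 322.4 and 341 with TET1 siRNA, against 333.8 and 358.5 with control siRNA, by probe set 224999_at. The groups overlapped, and the log2 difference of -0.058 had a 95% interval of -0.27 to 0.15 (limma adjusted p = 0.728). With 1 array left out it ran from -0.11 (without control siRNA replicate 1) to -0.0092 (without control siRNA replicate 2). The bright EGFR probe sets 201983_s_at and 201984_s_at had log2 differences of -0.011 and -0.078. The remaining 6 EGFR probe sets had mean signals of 1.48 to 42.4, of which 2 lay below the filter, and no EGFR probe set passed. ERBB2, which has no known ligand of its own and serves as a partner of the other receptors, had the largest difference of the receptors. Its signals were 134.1 and 131.8 with TET1 siRNA, against 161.1 and 162.3 with control siRNA, by probe set 216836_s_at. The arrays of each group lay close together and the groups did not overlap, with a ratio of 0.822. The log2 difference was -0.25 with a 95% interval of -0.52 to 0.0063, and it did not pass (limma adjusted p = 0.157); limma draws the spread of each gene towards that of genes of like signal. The dimmer ERBB2 probe set 210930_s_at gave 35.3 and 32.5 with TET1 siRNA against 24.1 and 34.6 with control siRNA, with overlap and the opposite sign (log2 difference 0.15). With the mean of its 3 probe sets ERBB2 was at -0.021 (limma adjusted p = 0.935). ERBB3, a neuregulin receptor with a weak kinase, gave 281.8 and 276.6 with TET1 siRNA, against 250.5 and 256.6 with control siRNA, by probe set 226213_at. The groups did not overlap, but the log2 difference of 0.13 (95% interval -0.085 to 0.35) did not pass (limma adjusted p = 0.395). Probe set 202454_s_at of ERBB3 had a log2 difference of 0.14 and 1563253_s_at of -0.29, and neither passed.

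ERRFI1, also known as MIG6, binds the kinase domain of these receptors and blocks it, and ERK signalling raises its transcript. It was among the brightest genes (percentile 99.5 of all probe sets). Signals were 6300 and 6217 with TET1 siRNA, against 6247 and 6190 with control siRNA, and the groups overlapped. The log2 difference was 0.0093, with the narrowest 95% interval of the members, -0.11 to 0.13 (limma adjusted p = 0.933).

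**Figure D2:**
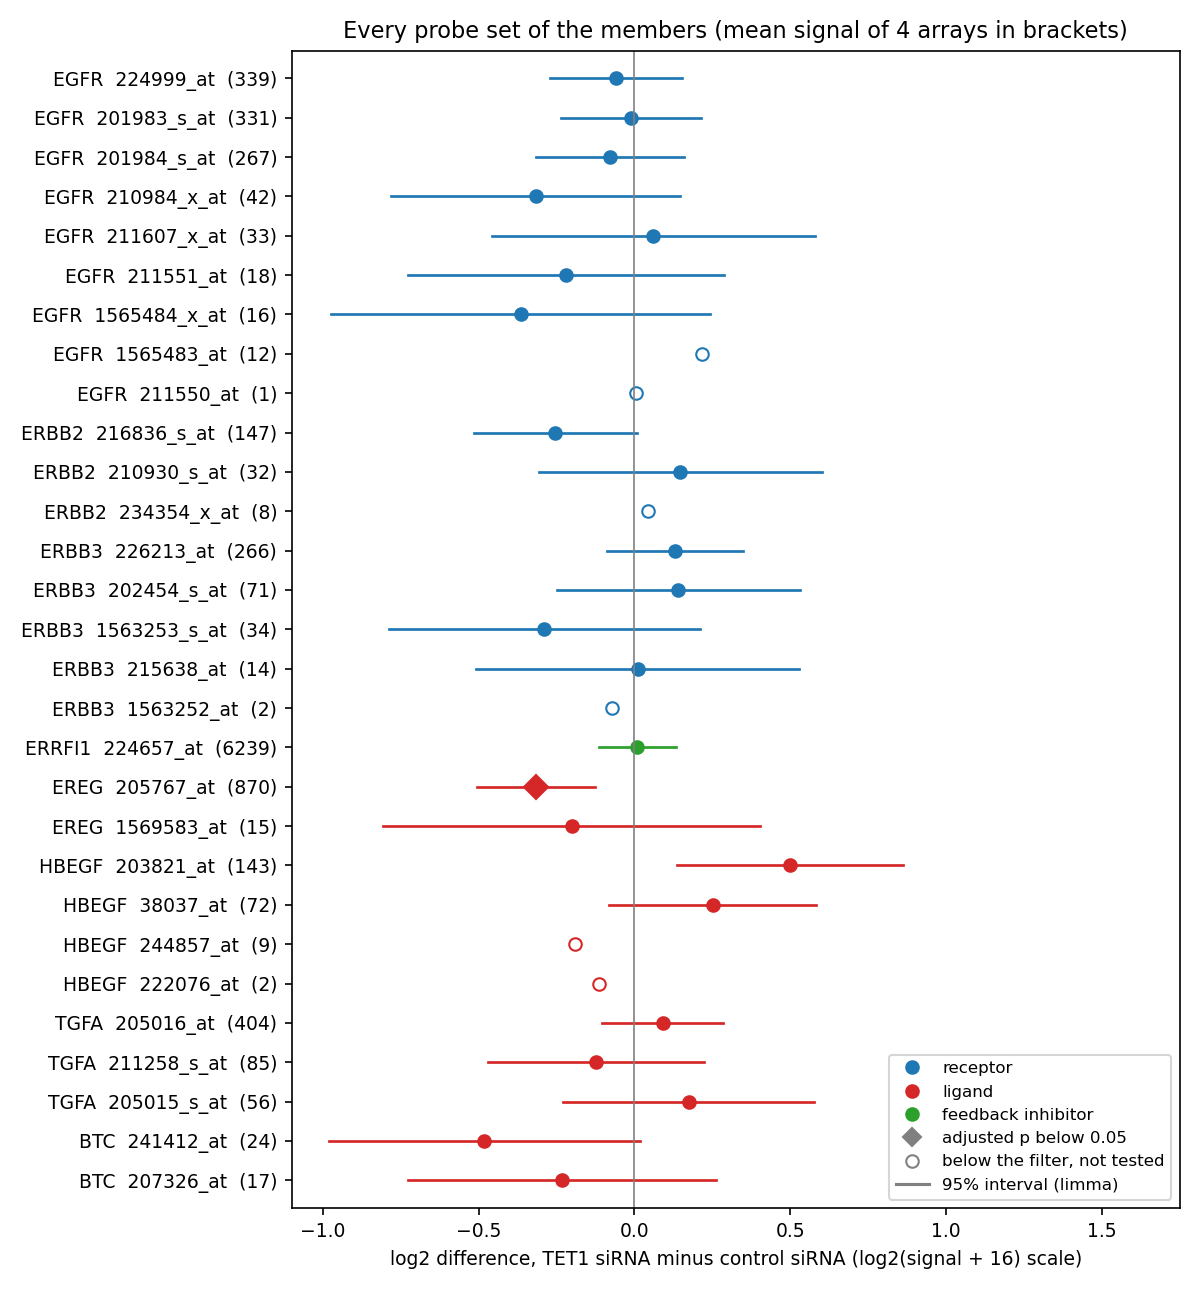
Log2 difference (TET1 siRNA minus control siRNA, horizontal axis) of all 29 probe sets of the 8 members, with limma's 95% interval for the 23 tested and open points for the 6 below the filter; mean signals are in brackets. Each probe set is tested by itself, and 205767_at of EREG, drawn as a diamond, passes; most other intervals span 0, and that of 203821_at of HBEGF (0.50) does not but misses the threshold after adjustment.

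Tested probe set by probe set, 1 of the 23 member probe sets above the filter fell and none rose (4.35%; at unadjusted p below 0.05, 1 fell and 1 rose by limma), against 16.1% of all 27306 probe sets tested (8.31% lower and 7.76% higher). The call was 205767_at of EREG. Without overlap were 10 of the 23 (43.5%), against 56.1% of all. Probe sets of 1 gene are not independent of each other, and EGFR alone holds 7 of the 23.

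Receptors and ligands were then set side by side. The median log2 difference was -0.058 for the 3 receptors and -0.11 for the 4 ligands, and 0.0098 over all genes tested. Receptors minus ligands was 0.055. Medians were also taken array by array, with each gene set against its control siRNA mean, which is another measure. Receptors minus ligands was then 0.0037 and 0.046 with TET1 siRNA and 0.047 and -0.047 with control siRNA (SD between replicates 0.051). The spread among ligands was wider, from -0.48 (BTC) to 0.50 (HBEGF), than among receptors, from -0.25 (ERBB2) to 0.13 (ERBB3). BTC signals were near the array median, unlike those of the receptors. With the probe sets of a gene averaged, HBEGF was at 0.11, ERBB2 at -0.021 and ERBB3 at -0.016. With 2 arrays against 2 an exact permutation test cannot give a p below 0.33, and no p is given for either set. Without probe sets of the _x_at and _s_at kinds, which leaves no ERBB2, the receptor median was 0.036 and receptors minus ligands 0.15.

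**Figure D3:**
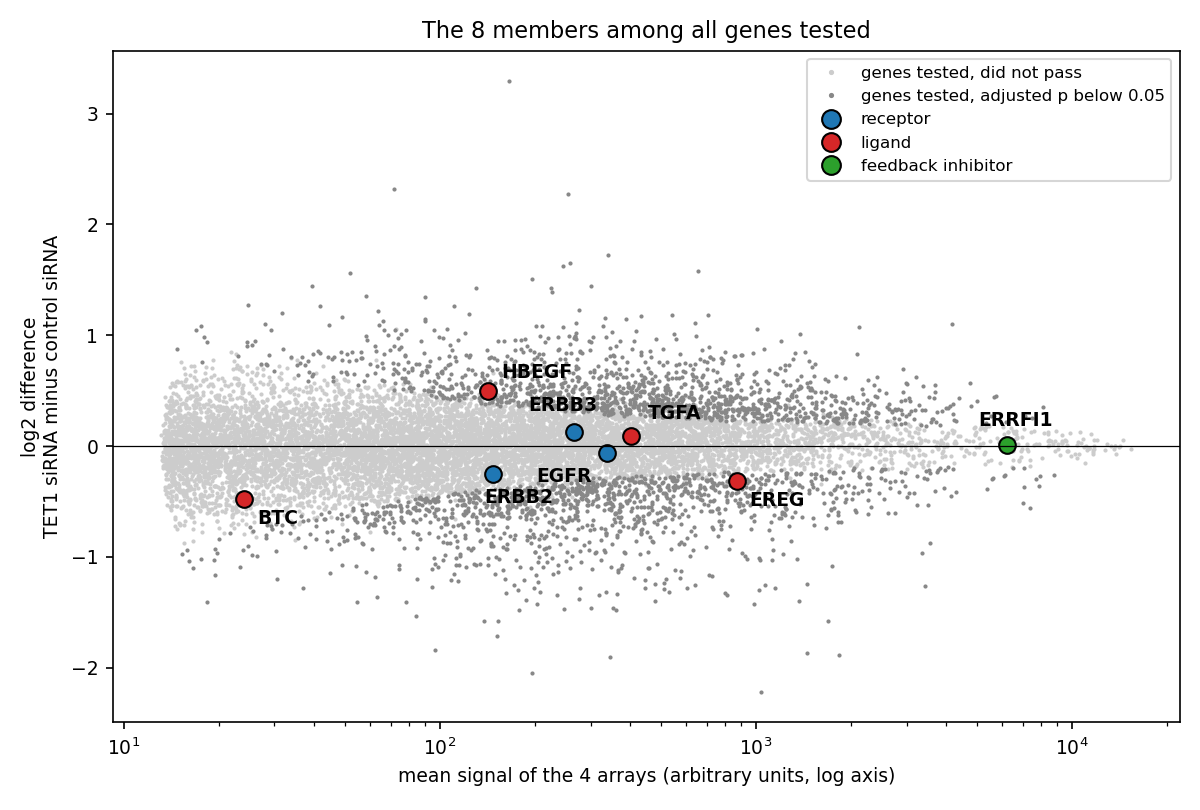
Log2 difference (vertical axis, TET1 siRNA minus control siRNA) against mean signal of the 4 arrays (horizontal log axis, arbitrary units) for all 12389 genes tested, dark grey where the limma adjusted p is below 0.05, with the 8 members in colour by role. HBEGF (0.50) and EREG (-0.32) lie at the inner edge of the dark points, and the receptors and ERRFI1 lie among the light ones.

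The other receptors and ligands of the family were dim. ERBB4 gave 6.8 and 11.2 with TET1 siRNA against 8.8 and 10 with control siRNA, and EGF itself gave 13.5 and 7.6 with TET1 siRNA against 1.4 and 6.9 with control siRNA. The neuregulin genes NRG3 and NRG4 were at most 9.6 on any array. These 4 were not tested. NRG2 (10.3 and 13.5 with TET1 siRNA against 19.3 and 23.7 with control siRNA) and NRG1 (11.8 and 14.3 with TET1 siRNA against 12.7 and 23.8 with control siRNA) were tested and did not pass (limma adjusted p = 0.253 and 0.622).

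Genes that act around the receptors moved in both directions. Over 7 lists of 74 genes, 63 had a probe set and 58 were tested, and of these 11 rose and 12 fell (39.7%), against 21.9% of all genes tested. The rest of the listed genes were not analysed here. The lists are small and were written with earlier results of these data known, so the share is a description. The number that rose was 6 on leaving out control siRNA replicate 2, 5 on leaving out TET1 siRNA replicate 1 and 7 on leaving out TET1 siRNA replicate 2.

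**Figure D4:**
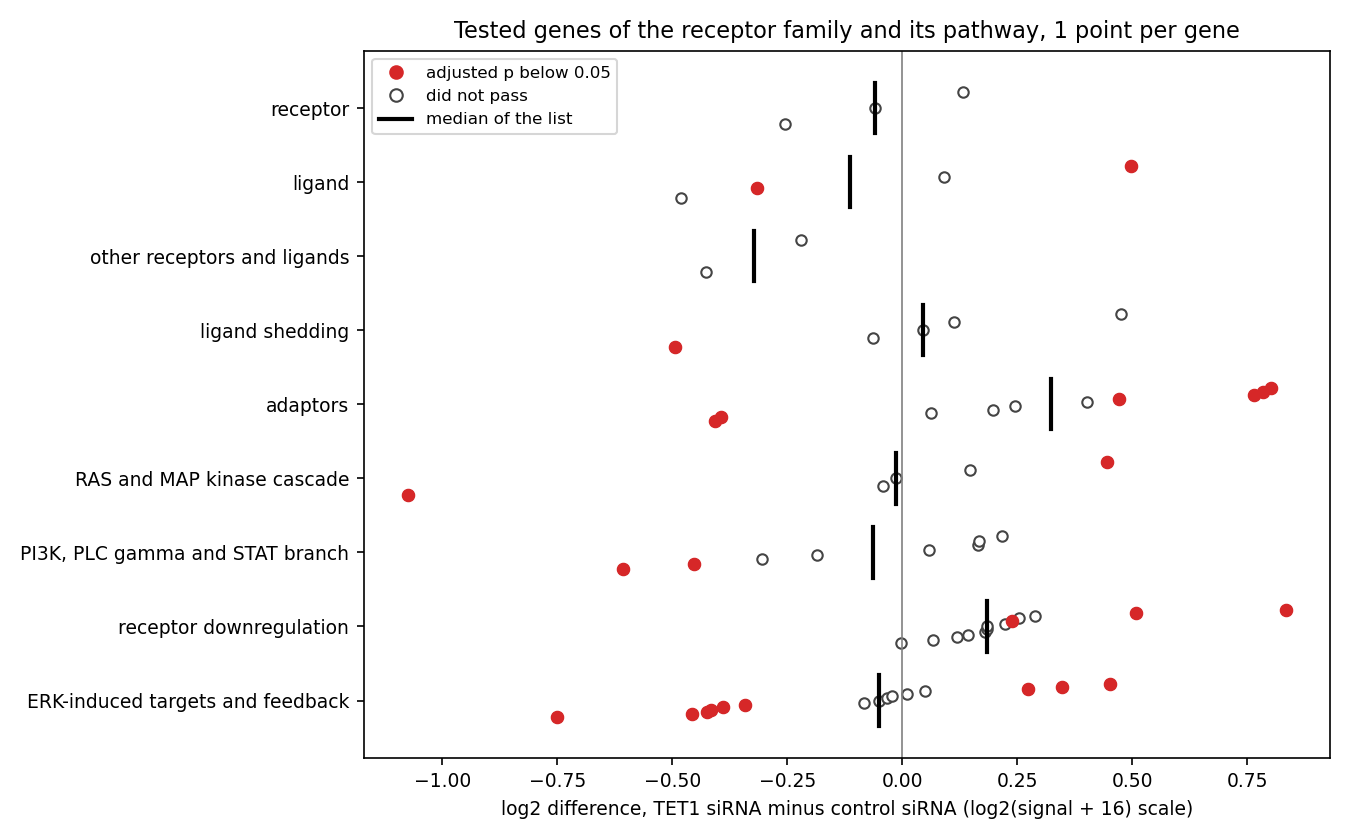
Log2 difference (horizontal axis, TET1 siRNA minus control siRNA) of each tested gene, 1 row per list, with red points for limma adjusted p below 0.05, open points for genes that did not pass and black bars for list medians. The medians of adaptors (0.32) and receptor downregulation (0.19) lie to the right of 0, and those of receptors (-0.058) and ligands (-0.11) lie close to it. Single genes of a list can lie on the other side.

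In the adaptor list, whose proteins link an active receptor to RAS and PI3K, 4 of 10 genes rose and 2 fell (60%, against 21.9% of all genes tested, median log2 difference 0.32). GRB2, the adaptor that binds the phosphorylated receptor, gave 968.3 and 892.6 with TET1 siRNA, against 562.8 and 504.4 with control siRNA (log2 difference 0.79, SE 0.086, limma adjusted p = 1.01e-04). Both groups were tight and far apart, and 2 of its 3 probe sets passed as higher. SOS2, an exchange factor that GRB2 brings to RAS, gave 156.4 and 165.7 with TET1 siRNA against 102.6 and 71 with control siRNA (0.80), in 1 of 4 probe sets above the filter. GAB2, a docking protein, gave 64.6 and 74.1 with TET1 siRNA against 37.7 and 30.8 with control siRNA (0.77), and the exchange factor gene SOS1 gave 198.1 and 177.8 with TET1 siRNA against 121.5 and 141 with control siRNA (0.47). For SOS1, 1 of 3 probe sets above the filter passed. The GAB2 difference was 0.44 with a pseudocount of 64. The GAB2 call was lost without control siRNA replicate 2 or TET1 siRNA replicate 2, and the SOS1 call without control siRNA replicate 1 or TET1 siRNA replicate 1. Those of GRB2 and SOS2 held with each array left out in turn. With all probe sets of a gene averaged, SOS2 was at 0.29 (limma adjusted p = 0.191) and SOS1 at 0.13 (limma adjusted p = 0.514), and neither passed. The 2 genes that fell were named after their values were seen. The phosphatase gene PTPN11 gave 1956 and 1980 with TET1 siRNA against 2686 and 2500.4 with control siRNA (-0.39), and the adaptor gene CRKL gave 594.4 and 526.4 with TET1 siRNA against 791.3 and 706.1 with control siRNA (-0.41, not called without control siRNA replicate 1 or TET1 siRNA replicate 2).

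Among 5 measured genes of RAS and the MAP kinase cascade 1 rose and 1 fell (40%, against 21.9% of all genes tested, median -0.014). MAPK3, which encodes ERK1, gave 83.9 and 84.5 with TET1 siRNA, against 154.5 and 245.4 with control siRNA (log2 difference -1.08, SE 0.18, limma adjusted p = 0.0015). Its control siRNA arrays differed widely but both were above the TET1 siRNA arrays. MAPK3 had 1 probe set, of the _x_at kind, and so no value when the _x_at and _s_at kinds were dropped. HRAS, a small GTPase, gave 182.5 and 182.6 with TET1 siRNA against 118.5 and 142 with control siRNA (0.45), a call that held only without control siRNA replicate 2 when arrays were left out in turn. Of 8 measured genes of the PI3K, PLC gamma and STAT branch none rose and 2 fell (median -0.064), a share of 25% that is near the 21.9% of all genes tested. The kinase gene AKT1 gave 156.9 and 148.9 with TET1 siRNA against 203.6 and 285.4 with control siRNA (-0.61, -0.38 without control siRNA replicate 2), and the transcription factor gene STAT3 gave 433.8 and 484.2 with TET1 siRNA against 591.4 and 677.3 with control siRNA (-0.45). The AKT1 call was lost without control siRNA replicate 2 or TET1 siRNA replicate 2, and the STAT3 call without control siRNA replicate 2 or TET1 siRNA replicate 1. STAT3 passed as lower in 2 of 3 probe sets above the filter, and with all its probe sets averaged it was at -0.28 and did not pass (limma adjusted p = 0.0569). AKT1, like GAB2 above and STAM, SPRY4 and IER3 below, had only 1 probe set, of the _s_at kind.

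Of 13 measured genes of receptor downregulation, 3 rose and none fell (median 0.19), a share of 23.1% that is near the 21.9% of all genes tested. Some of these genes help to carry active receptors into endosomes and to the lysosome. STAM, a subunit of the endosomal sorting complex, gave 741.9 and 738.6 with TET1 siRNA, against 415.9 and 400.6 with control siRNA (log2 difference 0.83, SE 0.081, limma adjusted p = 5.09e-05). EPS15, an endocytic adaptor, gave 638.4 and 596.5 with TET1 siRNA against 401.2 and 458.5 with control siRNA (0.51), and both of its probe sets passed. CD2AP gave 915.3 and 909.8 with TET1 siRNA against 782.7 and 759.4 with control siRNA (0.24), a call that was lost when any 1 array was left out and with its probe sets averaged (0.065). Of 6 measured genes of ligand shedding 5 were tested, and FRMD8 fell (20%, near the 21.9% of all genes tested), with 224.1 and 224.1 with TET1 siRNA against 329 and 315.6 with control siRNA (-0.49), in 1 of its 4 probe sets. With all 4 averaged FRMD8 was at -0.025 (limma adjusted p = 0.935) and did not pass. FRMD8 binds the iRhom proteins that keep the sheddase ADAM17 at the surface. The iRhom gene RHBDF1 gave 88.5 and 83.3 with TET1 siRNA against 60.2 and 54.5 with control siRNA, without overlap. Its log2 difference of 0.47 was opposite in sign to that of FRMD8 and did not pass, just above the threshold (limma adjusted p = 0.05004). The iRhom gene RHBDF2 was at 0.046, with overlap, and did not pass (limma adjusted p = 0.876). The sheddase genes did not pass, with log2 differences of -0.064 for ADAM17 and 0.11 for ADAM10.

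The transcripts that ERK signalling induces moved both ways: of 15 measured, 3 rose and 6 fell (60%, against 21.9% of all genes tested, median log2 difference -0.050). DUSP4, a MAP kinase phosphatase, gave 701.7 and 726 with TET1 siRNA, against 1257 and 1167 with control siRNA (log2 difference -0.75, SE 0.076, limma adjusted p = 6.43e-05), and all 3 of its probe sets passed as lower. SPRY4, an inhibitor of RAS signalling, gave 280 and 309.5 with TET1 siRNA against 420.2 and 400.5 with control siRNA (-0.46, not called without TET1 siRNA replicate 1). FOS gave 201.6 and 203.3 with TET1 siRNA against 310.4 and 247.1 with control siRNA (-0.42, and -0.27 without control siRNA replicate 1), a call that held only without control siRNA replicate 2 when arrays were left out in turn. ETV5, an ETS family transcription factor, gave 503.4 and 493.5 with TET1 siRNA against 400.3 and 323.5 with control siRNA (0.45). It passed as higher in 2 of 4 probe sets above the filter, was at 0.20 with its probe sets averaged and 0.22 without the _x_at and _s_at kinds and passed in neither, and its call was lost without control siRNA replicate 2 or TET1 siRNA replicate 1. The other called genes of this list were named after their values were seen. Those lower were PHLDA1 (-0.42), the early response gene IER3 (-0.39) and the ERK phosphatase gene DUSP6 (-0.34, with -0.52 without control siRNA replicate 1 and -0.16 without control siRNA replicate 2). Those higher were the RAS inhibitor gene SPRED2 (0.35) and the transcription factor gene FOSL1 (0.27). The calls of PHLDA1 and IER3 held with each array left out in turn, those of DUSP6 and SPRED2 in 2 of 4 such fits and that of FOSL1 in none. With median centring FOS (limma adjusted p = 0.0655) and DUSP6 (limma adjusted p = 0.0701) did not pass. With probe sets averaged PHLDA1 was at -0.27 and SPRED2 did not pass (limma adjusted p = 0.0908).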

How the data were processed

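RNA of HCT116 cells was measured on 1 Affymetrix array per sample (2 TET1 siRNA, 2 control siRNA), from oligo(dT)-primed, biotin-labelled cRNA, per the labels' protocols. The deposited intensity values are linear and scaled to 1 trimmed mean per array (2% off either end); which software made them, how background was handled and which target the scale had is not given in the sources used here. Depth has no meaning for arrays, and their number limits the precision.

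Values were used as log2(signal + 16). Of 54675 probe sets 62 controls were left out; 41091 had 1 gene symbol in the platform annotation, 1801 several and 11721 none, and 41037 matched a current RefSeq symbol. The brightest probe set, by mean signal, stood for its gene. Genes (12389) and probe sets (27306) above the median log2 value (4.86, a signal of 13.1) were tested with limma 3.58.1 in R 4.3.3 (lmFit, eBayes with trend, two-sided, Benjamini-Hochberg, threshold 0.05), with 2 residual and, for genes, 9.24 prior degrees of freedom. The fit was tested on simulated data. Named genes are the members, TET1 and up to 4 called genes of each pathway list by size. All genes of the list of other receptors and ligands are named too. ADAM10, ADAM17, RHBDF1, RHBDF2, the markers and the further called genes of the lists were named after their values were seen. Members and lists were chosen with earlier results of these data known. Alternatives changed the normalization, pseudocount, variance model, filter, fold threshold, probe set choice and replicate block, or left out 1 array. Same-numbered arrays did not deviate together (r = 0.00554 across genes, 1 value as each group has 2 arrays), so replicate numbers were not taken as pairs. Figures were drawn with matplotlib 3.10.9.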

Additional observations from a re-analysis of the deposited data

How the results depend on the processing

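Over all genes, 442 passed as higher and 542 as lower when the variance trend was dropped, 0 and 0 when limma's moderation was dropped (2679 at unadjusted p below 0.05), 905 and 854 when dim probe sets were kept, and 429 and 537 at 1.5-fold or more. There were 772 higher when probe sets of a gene were averaged and 885 when _x_at and _s_at probe sets were dropped. Tested singly, probe sets gave 298 higher and 541 lower with no trend, 0 and 1 with no moderation (5136 at unadjusted p below 0.05), 1098 and 1204 with dim ones kept, and 795 and 1161 at 1.5-fold.

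With 1 array left out at a time, 813 to 1159 genes were higher and 873 to 982 lower, and 1257 to 1646 probe sets higher and 1421 to 1630 lower, in a fit that takes the lone array to vary like the other group. Of genes, 813 were higher without TET1 siRNA replicate 1, 840 higher when TET1 siRNA replicate 2 was left out, and 873 lower without control siRNA replicate 2; of probe sets these numbers were 1257, 1275 and 1421.

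Of the members, 0 genes passed as higher with a pseudocount of 1, and 0 passed in either direction with no variance trend, with no moderation, with dim probe sets kept, at 1.5-fold, and with probe sets averaged (at unadjusted p below 0.05 in limma, 0 to 2 higher and 1 to 3 lower). When _x_at and _s_at probe sets were dropped, 0 passed as higher, the receptor median was 0.036 and receptors minus ligands was 0.15. Of member probe sets, 0 fell and 1 rose with median centring. In the fit with the replicate number as a block 1 rose (0 without the block), which is 203821_at of HBEGF, and the limma adjusted p of HBEGF as a gene was 0.0181. With an upper-quartile filter 1 rose, and 0 fell with no trend, with no moderation, with dim probe sets kept and at 1.5-fold. In the pathway lists 3 rose and 2 fell with no trend, 0 and 0 with no moderation, and 4 and 3 at 1.5-fold; 6 rose with dim probe sets kept and 6 with probe sets averaged.

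With 1 array left out at a time, 0 to 1 members were higher and 0 to 1 lower, as genes and as probe sets, and 5 to 8 pathway genes were higher and 8 to 10 lower. The receptor median ran from -0.11 (without control siRNA replicate 1) to -0.0092 (without control siRNA replicate 2), the ligand median from -0.12 to -0.065, and receptors minus ligands from 0.0037 to 0.097.

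The sign turned in 17 cases, none of which passed in either setting (limma adjusted p from 0.752 to 0.999). ERBB3 was at -0.016 when its probe sets were averaged, and EGFR 201983_s_at at 0.025 with median centring. The others turned when 1 array was left out, over these ranges of the log2 difference. ERRFI1, as a gene and as its probe set, ran from -0.00025 to 0.019, NRG1 from -0.46 to 0.016, EREG 1569583_at from -0.55 to 0.15, TGFA 211258_s_at from -0.25 to 0.0011 and ERBB2 210930_s_at from -0.021 to 0.31. EGFR 201983_s_at ran from -0.089 to 0.068, 201984_s_at from -0.17 to 0.0098, 1565484_x_at from -0.73 to 0.0021 and 211607_x_at from -0.19 to 0.31. ERBB3 202454_s_at ran from -0.061 to 0.34 and 215638_at from -0.099 to 0.12. The cause of these changes was not tested.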
